A study of Mus musculus with 2 samples.

Results

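The miRNAs of the vessel wall and of red cells were followed through microRNA sequencing of the mouse hippocampus. They are 7 genes, chosen by name for the cell type each is known for: Mir126a and Mir126b for endothelium, Mir143 and Mir145a for mural cells, and Mir451a, Mir144 and Mir486 for blood. All 7 were found by symbol among the 2202 miRNA genes counted. The tissue came from male B6CASTF1/J mice aged 14 days, an F1 hybrid of C57BL/6J and CAST/EiJ. There was 1 group of 2 biological replicates with no treatment or second genotype, and each label names 3 males by their own numbers. Both labels also share a donor identifier, and how the tissue was pooled is not given in the sources used here, so SDs and p-values reflect only how these 2 samples differ, in part perhaps for technical reasons. Whether blood was rinsed from the vessels before dissection is likewise not given in the sources used here.

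Endothelial cells line the vessels, mural cells (smooth muscle and pericytes) wrap them, and red cells flow inside, so a block of brain holds all of them beside its neurons and glia. Each of these lineages is known for a few miRNAs that it makes at high level. miR-126 is processed from the transcript of Egfl7, a gene of endothelial cells, and keeps vessels intact. miR-143 and miR-145 are cut from a shared primary transcript and set the contractile state of smooth muscle. miR-144 and miR-451 are likewise made together in red cell precursors under the factor GATA1, and miR-451 matures without Dicer, by the cut of an Argonaute protein. miR-486, from the erythroid ankyrin gene Ank1, is abundant in red cells and in muscle.

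The counts are of whole hairpin genes, so the mature arms were not separated, and the sequences show which reads can stand for which gene. Of the 7 genes, 4 were matched in the RefSeq table of GRCm38.p6, and Mir143, Mir145a and Mir486 are given by name. The mature forms that the table lists at the endothelial and the erythroid locus are printed because each locus carries a second annotated hairpin on the other strand. Capitals mark the seed, bases 2 to 8.

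miR-126a-3p: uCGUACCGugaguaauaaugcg

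miR-126b-5p: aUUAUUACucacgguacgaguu

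miR-126b-3p: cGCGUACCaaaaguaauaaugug

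miR-451a: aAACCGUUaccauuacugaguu

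miR-451b: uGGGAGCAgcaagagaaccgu

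miR-144-5p: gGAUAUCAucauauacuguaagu

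miR-144-3p: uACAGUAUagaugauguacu

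None of these 7 seeds occurs in another of the 1738 mature miRNAs of the table, so each stands alone as a seed family there. miR-126a-3p and miR-126b-5p lie on opposite strands and cover 19 bases in common. Read in the same direction, the whole Mir126a hairpin shares at most 10 bases in a row with the Mir126b hairpin, so a full-length read of either arm fits 1 strand of the locus. The erythroid hairpins are closer to palindromes, as the next 2 sequences show, with the longest stretches they share in capitals.

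Mir451a hairpin: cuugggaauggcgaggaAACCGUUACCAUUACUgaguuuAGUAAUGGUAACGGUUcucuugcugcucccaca

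Mir451b hairpin: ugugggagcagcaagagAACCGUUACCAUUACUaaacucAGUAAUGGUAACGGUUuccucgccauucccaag

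There are 2 such stretches of 16 bases, from base 18 to base 33 and from base 40 to base 55 of both hairpins, counted from the 5′ end. miR-451a has 22 bases and shares at most 16 in a row with the Mir451b hairpin, so a full-length read of it reaches past the stretch. Mir486 shares a longer run of 22 bases with Mir3107, the miRNA gene on the other strand of its locus. A read inside that run fits both strands, and multimapping reads were given to no gene. The counts of Mir486 and Mir3107 are therefore uncertain. They can be too low by an unknown amount, and so can any sum that holds Mir486. No member shares a run of 20 bases with a miRNA gene elsewhere in the genome.

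The libraries held 3793934 counts on miRNA genes in replicate 1 and 2554997 in replicate 2, of 13791106 and 7239133 reads in all. Unmapped reads were 41.3% and 20.7%, and multimapping reads 26.3% and 37.5%. Levels are in CPM, the gene-strand counts of a gene per 1000000 such counts over all miRNA genes. How evenly different miRNAs were captured into the libraries is not known, so ratios between genes or classes compare counts, not molecules. A count of 0 allows a level of at most 0.791 CPM in replicate 1 and 1.17 CPM in replicate 2, the worth of 3 counts. All intervals are 95% intervals. They and these limits cover counting error alone. PCR copies of a molecule were not told apart, so the intervals can be too narrow even for that. As a check for neurons, a list of 13 neuronal genes held 11.5% and 10.8% of counts, led by Mir139, Mir149 and Mir132. Mir139 alone was at 67421 and 76115 CPM, and the list cannot tell hippocampus from other brain tissue. The 3 copies of Mir124a, which defines neurons, had at most 12 counts each in a library, and those of Mir9 at most 216. Reads of both may be among the multimapping ones.

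The endothelial signal was the largest of the classes and came from 1 strand. Mir126a (ENSMUSG00000065540.1) lies at chr2:26591357-26591429 in mm10, on the strand of Egfl7, in introns of 8 of the host's 9 annotated transcripts that span it and in an exon of the other. It had 42901 counts in replicate 1 and 20002 in replicate 2, which is 11308 and 7829 CPM, or 9568 ± 2460 CPM (SD, n = 2). That placed it at rank 23 of the 2202 genes by mean CPM. Replicate 1 was higher by 1.44-fold (interval 1.42 to 1.47).

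Mir126b (ENSMUSG00000105799.1), annotated on the other strand at chr2:26591363-26591420, had 0 counts in both libraries. Against the Mir126a reads of the locus, 0 counts allows a share of up to 0.00699% in replicate 1 and 0.0150% in replicate 2. The reads that the opposite-strand column lists for Mir126b, 42899 and 19999, are those of Mir126a, less the 2 and 3 that fall outside its shorter hairpin. In the deposited data the endothelial signal is therefore Mir126a alone.

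The mural pair stood lower and, per assigned count, was nearly level between the libraries. Mir143 (ENSMUSG00000065445.3, chr18:61649196-61649258) and Mir145a (ENSMUSG00000065592.2, chr18:61647825-61647894) lie on the minus strand with 1301 bases between them, outside annotated genes. Mir143 had 2833 CPM in replicate 1 and 3069 CPM in replicate 2, or 2951 ± 166 CPM (SD, n = 2), from 10750 and 7841 counts. Mir145a had 191 and 179 CPM, or 185 ± 8.46 CPM (SD, n = 2), from 724 and 457 counts. Neither gene has an annotated miRNA on its other strand, and both had the same counts in the column that ignored strand. Although the hairpins are neighbours, Mir145a held only 6.31% of the pair's counts in replicate 1 (exact interval 5.87 to 6.77) and 5.51% in replicate 2 (5.03 to 6.02). Mir143 was thus counted 14.8 and 17.2 times as often as Mir145a.

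The red cell genes were the lowest members with counts, and they were the farthest apart between the libraries. Mir451a (ENSMUSG00000070065.1, chr11:78073170-78073241) and Mir144 (ENSMUSG00000065401.1, chr11:78073005-78073070) lie on the plus strand with 99 bases between them, outside annotated genes. Mir451a had 159 counts in replicate 1 and 415 in replicate 2, which is 41.9 CPM (interval 35.9 to 48.9) and 162 CPM (148 to 179). Its mean was 102 ± 85.2 CPM (SD, n = 2), and replicate 2 was higher by 3.88-fold (interval 3.22 to 4.68). The SD was thus nearly as large as the mean.

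Mir144 had 34 counts in replicate 1 and 43 in replicate 2, which is 8.96 CPM (interval 6.41 to 12.5) and 16.8 CPM (12.5 to 22.7). Its mean was 12.9 ± 5.56 CPM (SD, n = 2), and replicate 2 was higher by 1.88-fold (interval 1.17 to 3.04), the same direction as Mir451a. Mir144 held 17.6% of the pair's counts in replicate 1 (exact interval 12.5 to 23.7) and 9.39% in replicate 2 (6.88 to 12.4). The pair was thus less even in replicate 2, where Mir451a had 9.65 counts for each of Mir144, than in replicate 1, where it had 4.68. Mir451b, on the other strand of Mir451a, had 0 counts in both libraries.

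**Figure D1:**
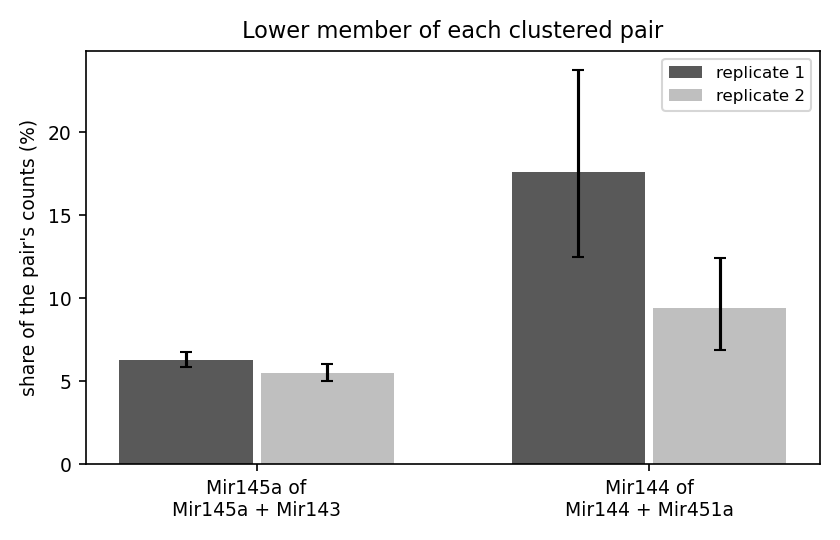
Share of each clustered pair's counts (percent, from 0) that went to its lower member, by replicate, with exact 95% intervals for counting error. Mir145a took 6.31% and 5.51% of the mural pair, and Mir144 took 17.6% and 9.39% of the erythroid pair in replicates 1 and 2.

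Mir486 (ENSMUSG00000070084.3, chr8:23142555-23142682) lies in introns of Ank1, on its strand, and went the other way. It had 93 counts in replicate 1 and 33 in replicate 2, which is 24.5 CPM (interval 20.01 to 30.03) and 12.9 CPM (9.20 to 18.1). Its mean was 18.7 ± 8.20 CPM (SD, n = 2), and replicate 1 was higher by 1.90-fold (interval 1.26 to 2.92). Mir3107 on the other strand had 5 counts in replicate 1 and 10 in replicate 2. So Mir486 stood at 36.9% of the counts of Mir486 and Mir451a together in replicate 1 (exact interval 30.9 to 43.2), and at 7.37% in replicate 2 (5.12 to 10.2). As given above, its reads can be lost as multimapping, and the share of multimapping reads was larger in replicate 2. The part of that loss in the difference was not tested.

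**Figure D2:**
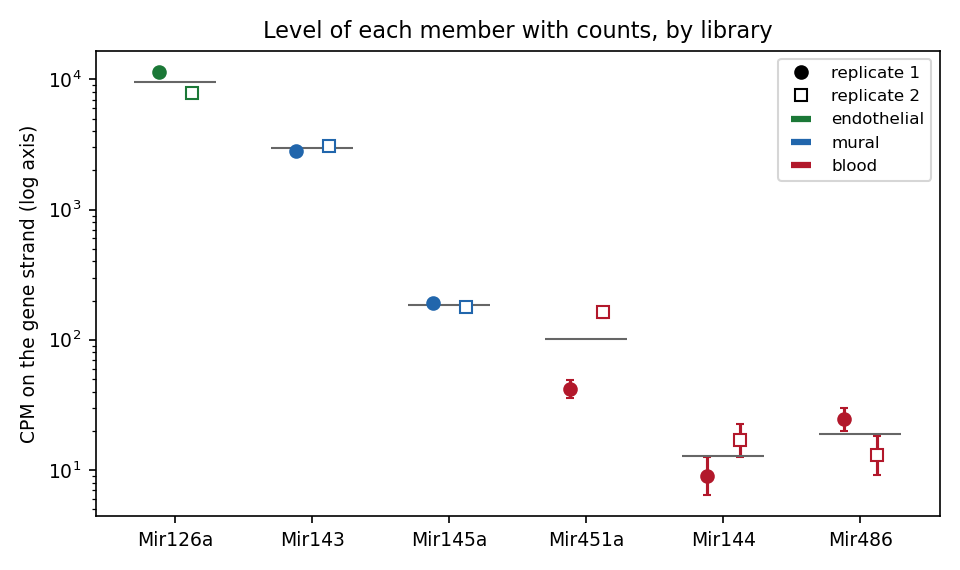
CPM on the gene's strand (log axis) of the 6 members with counts, with filled circles for replicate 1, open squares for replicate 2, 95% Wilson intervals for counting error and a grey line at the mean. Mir451a lies at 41.9 and 162 CPM, while the values of Mir143 and of Mir145a nearly coincide.

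By mean CPM the order was Mir126a, Mir143, Mir145a, Mir451a, Mir486, Mir144 and Mir126b. Mir126a was 3.24-fold above Mir143 and Mir143 16.0-fold above Mir145a, with no overlap of their values. Mir145a and Mir451a were only 1.81-fold apart, and 162 CPM for Mir451a in replicate 2 came close to 179 CPM for Mir145a there. Mir486 and Mir144 could not be ordered, since their values overlapped and each was the higher in 1 library. Here 6 of the 7 members reached 2 CPM in both libraries, and the seventh, Mir126b, was at 0.

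Summed by class, the endothelial genes took 1.13% of replicate 1 (1.12 to 1.14 by Wilson's method) and 0.783% of replicate 2 (0.772 to 0.794). The mural genes held 0.302% (0.297 to 0.308) and 0.325% (0.318 to 0.332). The blood genes held 0.00754% (0.00671 to 0.00846) and 0.0192% (0.0176 to 0.0210), without any Mir486 reads lost as multimapping. The means were 0.957% ± 0.246, 0.314% ± 0.0158 and 0.0134% ± 0.00826 (SD, n = 2). In bulk tissue, fewer cells of a type and less RNA per cell cannot be told apart in such shares.

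The classes differed in direction as well as in size. Replicate 2 over replicate 1 was 0.692-fold for the endothelial sum (interval 0.681 to 0.704), 1.07-fold for the mural sum (1.04 to 1.10) and 2.55-fold for the blood sum (2.20 to 2.96). For each blood count there were 150.003 endothelial counts in replicate 1 and 40.7 in replicate 2, and 40.1 and 16.9 mural counts. Endothelial counts were 3.74 and 2.41 times the mural counts, so the vessel wall signals did not keep a fixed proportion to each other either. The direction of the blood sum rested on Mir451a. Without it, an alternative chosen after seeing the data, the sum of Mir144 and Mir486 was 33.5 and 29.7 CPM. That is 0.889-fold in replicate 2 (interval 0.660 to 1.19). These 2 genes went opposite ways, and Mir486, with the uncertain counts, held 93 and 33 of the 127 and 76 counts summed. Mir144 went the same way as Mir451a, and these 2 together had 193 counts in replicate 1 and 458 in replicate 2.

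For each of the 507 genes with 10 or more counts over both libraries, the split of its counts was tested against the split of the library totals (exact binomial test, two-sided), and p-values were adjusted by Benjamini-Hochberg over all 507. The test covers counting error only and compares these libraries, not conditions. Of the 6 members tested, 5 differed, beside 52.1% of all tested genes. Mir143, Mir451a and Mir144 were higher in replicate 2, beside 26.8% of all genes, and Mir126a and Mir486 were higher in replicate 1, beside 25.2%. Log2 ratios, of replicate 2 over replicate 1 on the log2(CPM + 0.5) scale, were 1.94 for Mir451a (adjusted p = 1.61e-53 in the exact binomial test) and 0.87 for Mir144 (adjusted p = 0.0152, same exact test). They were -0.90 for Mir486 (adjusted p = 0.00324, same exact test), 0.12 for Mir143 (adjusted p = 2.59e-07, same exact test) and -0.53 for Mir126a, whose p was too small to be represented. Mir145a, at -0.09, did not pass (adjusted p = 0.392, exact binomial test). The median over the 6 members was 0.01, beside -0.02 over all tested genes.

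The design has no further replicate against which these differences could be judged. A negative binomial test was run at edgeR's common dispersion, a coefficient of variation of 0.377, but that spread comes from the difference of the same 2 libraries, which leaves little room for a call. In it 0 of 6 members were called, beside 0.394% of all genes. Mir451a was the only member with an unadjusted p under 0.05 (p = 0.0182 in edgeR's exact test, adjusted p = 0.660), beside 4.54% of all genes. With dispersions from DESeq2 in the same test, 0 members were called, beside 0 of the 507 genes, and Mir451a was again the only member with an unadjusted p under 0.05 (p = 0.0423, exact test), beside 2.37% of all genes. Per assigned count the mural genes were the closest between the libraries, with Mir143 1.08-fold higher in replicate 2 and Mir145a 1.07-fold higher in replicate 1. With all reads as the denominator the closest was Mir126a, at a log2 ratio of -0.17, while Mir145a turned to 0.26 and Mir143 was at 0.47.

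**Figure D3:**
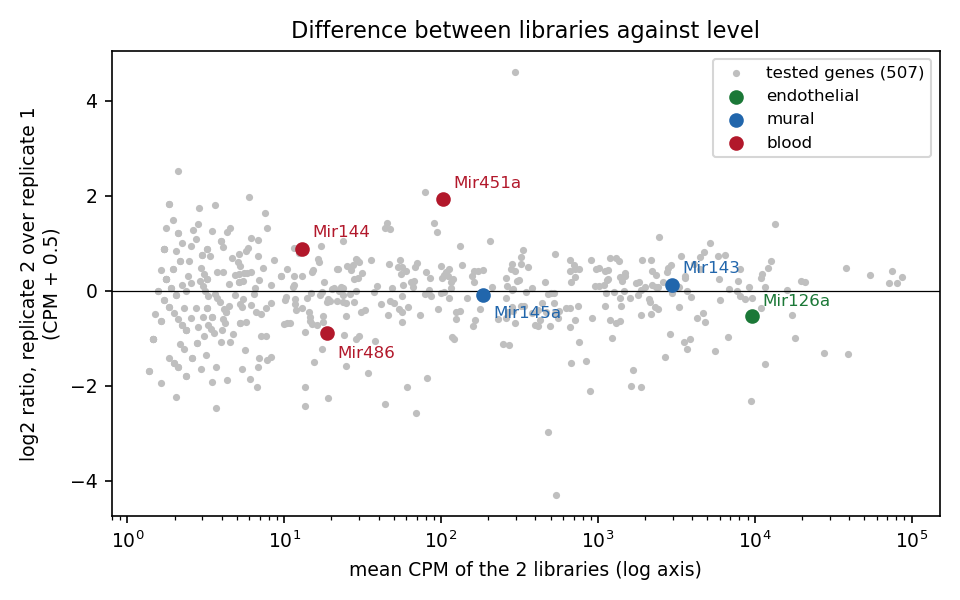
Log2 ratio of the libraries (replicate 2 over replicate 1, CPM + 0.5) against mean CPM on a log axis for the 507 tested genes in grey, with the 6 tested members coloured by class. Mir451a lies at 1.94 and Mir144 at 0.87 above the line, Mir486 at -0.90 and Mir126a at -0.53 below it.

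Among the 328 genes averaging at least 10 CPM, Mir451a had the third highest ratio towards replicate 2 and was number 15 by size in either direction. Of the 59 other such genes whose mean lay within 2-fold of its own, 3 had a larger difference in either direction. Mir486 was number 58 by size, Mir144 number 60 and Mir126a number 121. Among the other such genes within 2-fold of their means, a larger difference was seen in 13 of 76 for Mir486 and 12 of 58 for Mir144. For Mir126a it was 11 of 28. Mir143 and Mir145a were numbers 276 and 283. The 3 genes with the log2 ratio nearest to that of Mir451a were Mir153 at 2.08, Mir491 at 1.43 and Mir148a at 1.42. Likeness here is a distance in 1 ratio over 2 libraries.

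Further genes linked to the same cell types were taken as lists, most of whose members other cells of the brain make too, to be read beside the 52.1% of genes called and the median log2 ratio of -0.02 over all tested genes. Of 12 tested genes that red cells are also rich in, 5 were higher in replicate 2 and 3 in replicate 1, with a median log2 ratio of 0.26. Mir22 led that list and was higher in replicate 1, at 7893 and 3279 CPM in replicates 1 and 2, while Mir92-1 (1336 and 1652 CPM) and Mir185 (1052 and 1228 CPM) were higher in replicate 2. The list's share of counts was 1.20% and 0.767%. That difference rested on Mir22: without it, an alternative chosen after seeing the data, the other 12 genes held 0.413% and 0.439%.

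Of 9 tested endothelium-linked genes, 3 were higher in each library, with a median log2 ratio of -0.38. Mir221 was higher in replicate 1 like Mir126a, at 4788 and 2259 CPM, while Mir23a (3446 and 6053 CPM) and Mir130a (3418 and 5584 CPM) were higher in replicate 2. Only 3 of the 11 matched genes linked to smooth muscle and mesenchyme, of 12 listed, had enough counts to be tested. Of these, Mir195a was higher in replicate 2 (999 and 1603 CPM), Mir214 was higher in replicate 1 (97.5 and 23.5 CPM), and Mir206 did not pass (27.4 and 35.6 CPM). Another 6 of the 11, the copies of Mir1a and Mir133a with Mir133b and Mir199a-1, were at 0. Mir1a, Mir133a and Mir199a exist in copies, whose reads may be among the multimapping ones. The listed gene that was not matched is Mir497a. A gene counted under the symbol Mir497 was therefore left out of the list. Its mean was 1117 CPM, and it was higher in replicate 2, at a log2 ratio of 0.42 (adjusted p = 3.08e-33, exact binomial test).

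Markers of other cells that blood or the dissection can bring were set beside the members. Of 6 leukocyte and platelet genes, 2 were higher in replicate 2 and 3 in replicate 1, with a median log2 ratio of -0.31, and they held 0.180% and 0.170% of counts. Mir150 was at 981 and 1047 CPM, Mir146 at 700 and 545 CPM and Mir142 at 54.6 and 45.8 CPM in replicates 1 and 2. Mir223, known from granulocytes and platelets, and Mir155, known from activated leukocytes, were named after their values were seen. Mir223 was higher in replicate 1, at 8.17 and 3.13 CPM, and Mir155 was higher in replicate 2, at 37.7 and 56.0 CPM. The list was thus split in direction.

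The choroid plexus and ciliated epithelium list, 4 of 7 tested, had 3 genes higher in replicate 1 and 0 in replicate 2. Over all tested genes these shares were 25.2% and 26.8%. The list's median log2 ratio was -0.52, and it held 0.198% and 0.0931% of counts. Mir204 was at 743 and 581 CPM, Mir34c at 857 and 109 CPM and Mir449a at 363 and 225 CPM, while Mir449b was at 0. The list for epithelium, liver and muscle held 0.00952% and 0.0101% of counts, with Mir206 as given above, Mir122 at 20.6 and 29.7 CPM and Mir200c at 24.5 and 10.2 CPM. The part of these cell types in the differences of the members was not tested.

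The column that ignored strand gives another picture of the same reads, since it gives no gene to a read where miRNA genes overlap. Mir126a kept 2 of its 42901 counts there in replicate 1 and 3 of 20002 in replicate 2. Those lost were 19.7% and 13.1% of all reads that this column set aside as ambiguous. Mir451a and Mir486 were at 0 in it in both libraries, while Mir143, Mir145a and Mir144 had the same counts as on the gene's strand. That column thus lists Mir144 without its neighbour Mir451a, and nearly no endothelial signal, from the same reads.

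**Figure D4:**
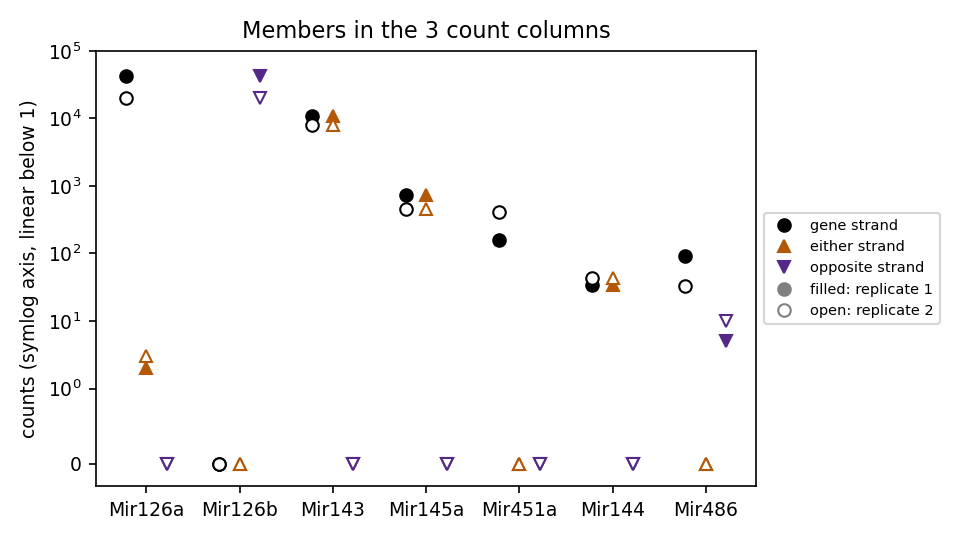
Counts of the 7 members in the gene-strand, either-strand and opposite-strand columns (symlog axis, linear below 1), with filled marks for replicate 1 and open marks for replicate 2. Mir126a falls from 42901 and 20002 counts to 2 and 3 when strand is ignored, and Mir451a and Mir486 fall to 0.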

How the data were processed

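MicroRNA-seq of 2 hippocampus samples was analysed from the deposited tables of raw counts per miRNA gene, on mm10 with GENCODE M21 per the accompanying text. For the aligner, counter, trimming and filters: not given in the sources used here. Each table has 3 count columns, and the gene-strand column was used. The 4 rows of reads given to no gene stayed out of totals. CPM, Wilson and exact intervals, log2(CPM + 0.5) ratios and exact binomial tests were computed with Python 3.11.15, scipy 1.17.1 and pandas 2.3.3. Genes with 10 or more counts over both libraries were tested, at an adjusted threshold of 0.05. edgeR 4.0.16 and DESeq2 1.42.0 in R 4.3.3 gave scalings and dispersions, since a quasi-likelihood test between 2 single libraries has no residual degrees of freedom. The binomial script was tested on simulated data with counting error as the only noise. That simulation cannot judge calls between libraries that also differ for other reasons. Hairpins for shared runs came from GENCODE transcripts, and printed sequences from RefSeq.

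The text names all members, miRNA genes overlapping or within 10000 bases of them, the 3 highest genes of each list and the 3 genes nearest Mir451a in ratio. Exceptions, named after values were seen, are Mir223, Mir155, Mir124a, Mir9, Mir1a, Mir133a, Mir133b, Mir199a, Mir449b and Mir497. Members and lists were chosen with earlier results of these data known.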

Additional observations from a re-analysis of the deposited data

How the results depend on the processing

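TMM totals and DESeq2 size factors changed no member's direction or call. Count filters of 1 and 50 changed no call, and pseudocounts of 0.1 and 2 CPM changed no direction. A filter cannot alter a ratio, and the exact test does not use the pseudocount. With all reads as the denominator the shares were 0.294% (endothelial), 0.0989% (mural) and 0.00443% (blood). That scaling moved the median log2 ratio of all tested genes from -0.02 to 0.30 and the calls over all genes from 136 higher and 128 lower in replicate 2 to 203 and 75. Mir145a reversed to 0.26 (adjusted p = 0.00474, exact binomial test), and Mir486 no longer passed at -0.52 (adjusted p = 0.102, same exact test). Ignoring strand, the shares were 9.04e-05%, 0.333% and 0.00137%, 2 members differed between libraries, and Mir144 held 100% of its pair. With either negative binomial spread, estimated from the same 2 libraries, 0 members differed. Without Mir451a the log2 ratio of the blood sum went from 1.35 to -0.17 (interval -0.60 to 0.25). No direction was left in that sum, in which Mir144 and Mir486 went opposite ways. With overlapping genes left out, 0 members shared a run of 20 bases, in place of 1. Replicate 1 alone gave a blood share of 0.00754%. Depth limits Mir144 and Mir486 most, at 33 to 93 counts a library. No paired analysis was possible because the series has 1 group.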
